A study of Mus musculus with 12 samples.

Results

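The regions described here are 2551 sites in coding exons at which AGO2 was listed on target RNA of the mouse cerebellum at P7 (postnatal day 7) but not at P15 (postnatal day 15). They are the entries of the P7 peak list that touch a coding segment of a protein-coding transcript, touch no 3' UTR on the same strand, and share not even 1 nt on that strand with an entry of the P15 list. The members were chosen from the deposited peak positions at both ages, so their absence at P15 is the rule and not a result. They make up 52.2% of the 4884 P7 peaks and lie in 1127 genes, and both lists of the series together hold 10057 peaks. For every group, homozygous conditional Spy3-Ago2 mice (genotype given as WT, tissue as cerebella, cell type as Purkinje cells) received an intracerebroventricular injection of an AAV carrying Cre under the L7 promoter, which the labels call specific to Purkinje cells. The groups are the P7 target and P15 target libraries (2 each), the P7 and P15 miRNA libraries (2 each) and the P7 and P15 input libraries (2 each), 12 libraries in all. Target and miRNA libraries hold RNA recovered with tagged AGO2 on a SpyCatcher3 resin and cut from a gel between 70 and 150 kDa, whereas input libraries come from whole lysate and were not analysed here. Tagging is limited to cells in which Cre acts, and the share of such cells is not given. The labels do not say how many animals gave a library, and each age has 1 list of target peaks with no value per replicate, so counts of peaks carry no error between replicates and the intervals below cover counting error only.

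AGO2 is the protein that carries a miRNA and, guided by it, binds messenger RNAs. A target site pairs chiefly with the seed of the miRNA, its nucleotides 2 to 8, and sites with strong effects on messenger levels are mostly in 3' UTRs, while AGO2 pull-downs also recover many fragments of coding exons, where ribosomes pass. Between these ages Purkinje cells, the output neurons of the cerebellar cortex, extend their dendritic tree and receive synapses from granule cells, which themselves divide and migrate in the same weeks.

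The 30 nt around the middle of 1 member in each of 4 genes show the words that were more frequent in the members than beside them, and for that reason come first. They come from the 8 genes with most members, in each of which the member with most such words was taken. In Fat2 and Ank2 those words lay outside the central 30 nt. None of the words shown in capitals kept its call against windows set 50 nt away from the peak, or with 1 member per gene. All are mm10 positions, read 5′ to 3′ along the transcript from the GENCODE M21 transcript sequences, with the more frequent 5-nt words in capitals.
Reln (chr5:21925266-21925295, minus strand): gacacctttagcaGCGCCccagtaccacag
Srrm2 (chr17:23816031-23816060, plus strand): tccagaacaccagccaGGAGAagtggcagg
Kmt2d (chr15:98843401-98843430, minus strand): attgccaagctcCCGAAagaagCTGCGgaa
Kif1a (chr1:93073058-93073087, minus strand): caagtctttgaccaCCCTGGgaaaggtcat

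For each of the 8 genes, 1 member is shown across its 5' edge, because the letters at the edge recur. Among members lying whole within exons it is the first along the coding sequence, except in Reln and Dync1h1. There the member shown lies at 7.65% and 4.71% of the coding sequence, and an earlier one at 5.93% and 3.93%. The 15 nt before the peak are in lower case and the first 15 nt of the peak in capitals. In 6 of these 8 a CA ends at the edge or starts there, and in Ank2 and Dync1h1 none does.
Fat2 (chr11:55311636-55311665, minus strand): tgccatccatcccacCAGTGGGGTGGTCAC
Reln (chr5:22128627-22128656, minus strand): gcctgaacacaacaaCAGCATCTGTCCTCC
Sptan1 (chr2:29978427-29978456, plus strand): ggagagacgacagcaAGTCCTGGATCGGTA
Srrm2 (chr17:23807133-23807162, plus strand): tggaccacgagcgcaAGCGGCGCGTGGAGC
Ank2 (chr3:127048223-127048252, minus strand): cacactatgggaatgTAAATGTGGCAACTC
Kmt2d (chr15:98854312-98854341, minus strand): ccaccacgcctaccaCAGAGGGCGAGGGAG
Dync1h1 (chr12:110614456-110614485, plus strand): ccaattcatcccatcATCACGAACGTTGCG
Kif1a (chr1:93082412-93082441, minus strand): taccaaccaactccaCAGAAATGGCCGGGG

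Most coding exon peaks of the P7 list had no partner at P15. Of all 4884 P7 peaks, coding exon peaks included, 3492 were listed only at P7. Of 2943 P7 coding exon peaks, 2551 (86.7%, exact binomial 95% interval 85.4 to 87.9) were members, a share that is the rule's own count, and 392 overlapped a P15 peak and are called shared peaks. Coding exon peaks made up 73.1% (71.5 to 74.5) of all peaks listed only at P7, 34.5% (33.0 to 36.1) of those listed only at P15 and 28.2% (25.8 to 30.6) of the P7 peaks that overlapped a P15 peak. The P15 list held 1297 coding exon peaks of its own, and 541 3' UTR peaks were listed only at P7. The score column is 0 in every entry, so a strong and a weak peak cannot be told apart, and a peak missing from a list says nothing about how much signal was there.

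Members were short. Their width ran from 17 to 278 nt with a median of 50 nt (quartiles 37 and 67.5), against medians of 60 nt for shared peaks and 51 nt for coding exon peaks listed only at P15. Just inside the rule, 18 members lay less than 10 nt from a P15 peak and 93 lay within 50 nt. The nearest included peaks in Mllt6, Ctnnd2 and Gm49510, with gaps of 0 or 1 nt. Just outside it, 13 shared peaks overlapped by under 10 nt, among them peaks in Cic (1 nt), Cbarp, Sbk1 and Trio (2 nt each), Soga1 (3 nt) and Apc2 (4 nt), whereas the median overlap of shared peaks was 46 nt. Another list, deposited with P15 target replicate 2 and holding 1624 peaks, overlapped 40 members (1.57%, interval 1.12 to 2.13), 55 shared peaks (14.0%, 10.7 to 17.9) and 38 peaks listed only at P15 (2.93%, 2.08 to 4.0).

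Members were spread over many genes, with a few long coding sequences holding many. Of 21945 protein-coding genes 1127 (5.14%) had a member. One member was found in 624 genes, 2 in 243, 3 to 5 in 184 and more than 5 in 76, and those 76 genes held 770 members (30.2%). The median coding sequence of genes with a member was 1944 nt, against 1173 nt over all protein-coding genes, and across the 1127 genes the number of members rose with coding length (Spearman rho 0.407; genes share libraries and are not replicates). Among the 5519 genes with at least that median length, 10.2% had a member. Transcript levels were not measured here, so their part in these counts was not tested. Of the 1127 genes, 583 (51.7%) held some exonic P15 peak, 281 (24.9%) a coding exon peak listed only at P15 and 460 (40.8%) a P15 3' UTR peak. Hence about as many of these genes were without any exonic P15 peak as with one. Over all 21945 protein-coding genes, 567 held a coding exon peak listed only at P15, and of the 5519 longer ones 354 did. Genes with members thus held such peaks more often than protein-coding genes at large. For exonic and 3' UTR P15 peaks the share over all genes was not counted.

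Fat2, an atypical cadherin known from granule cells and their parallel fibres, held the most members, 30, beside 2 shared peaks and 5 listed only at P15. Its members ran from 4.71% to 98.6% of the coding sequence of 13053 nt (gene at chr11:55250609-55336564, minus strand) and were 28 to 210 nt wide. Reln, the secreted glycoprotein that guides neuronal positioning and in the developing cerebellum comes from granule cells, had 24 members and no coding exon peak at P15 (chr5:21884454-22344702, minus strand). In the 3' UTR Reln had 1 P15 peak and Fat2 none. At P15 the coding sequence of Fat2 thus held peaks and that of Reln held none.

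Sptan1, the alpha chain of the spectrin network under the membrane, had 22 members, 1 shared peak and 1 peak listed only at P15. Srrm2, a large serine and arginine rich protein of nuclear speckles, had 18 members, 5 shared peaks and 2 listed only at P15. Ank2, an ankyrin that ties membrane proteins to spectrin, had 17 members, 1 shared peak and 3 listed only at P15. Kmt2d, a histone H3 lysine 4 methyltransferase, also had 17 members, all of its P7 coding exon peaks, and 3 listed only at P15. In Kmt2d the 16 members that could be placed on a transcript began at 35.1% of the coding sequence, while in Sptan1 they ran from 1.17% to 94.1%. Dync1h1, the heavy chain of cytoplasmic dynein, and Kif1a, a kinesin that carries synaptic vesicle precursors, had 16 members each.

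Apc2 and Prrc2b differed in make-up from the genes above. Apc2, a neuronal relative of the Wnt regulator Apc, had 14 members but 15 shared peaks, and Prrc2b, a large protein linked to RNA granules and translation, had 14 members, 23 shared peaks and 9 listed only at P15. Celsr2, an atypical cadherin of planar polarity, Huwe1, a ubiquitin ligase, and Nbea, a protein of membrane trafficking at synapses, had 14 members each with 0 or 1 shared peak. Fasn, the fatty acid synthase, and Hectd4, of the HECT ligase family, had 13 each.

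**Figure D1:**
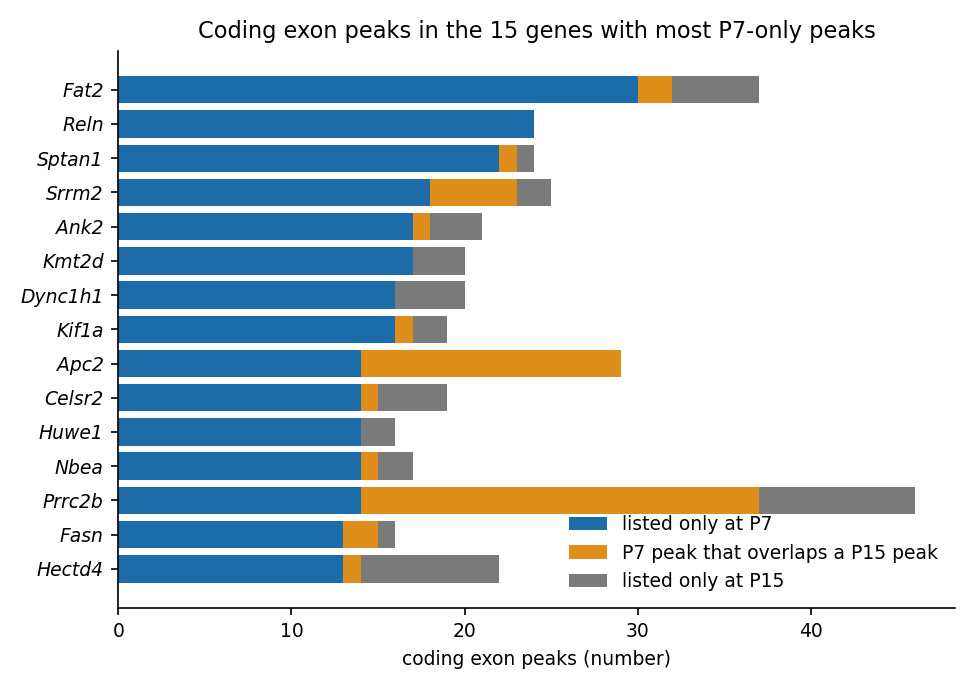
Number of coding exon peaks (x axis) in the 15 genes with most P7-only peaks (y axis), stacked by list: listed only at P7, P7 peaks that overlap a P15 peak, and listed only at P15. Fat2 leads with 30 P7-only peaks and Reln has 24 and no others, while Prrc2b and Apc2 carry 23 and 15 overlapping peaks.

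**Figure D2:**
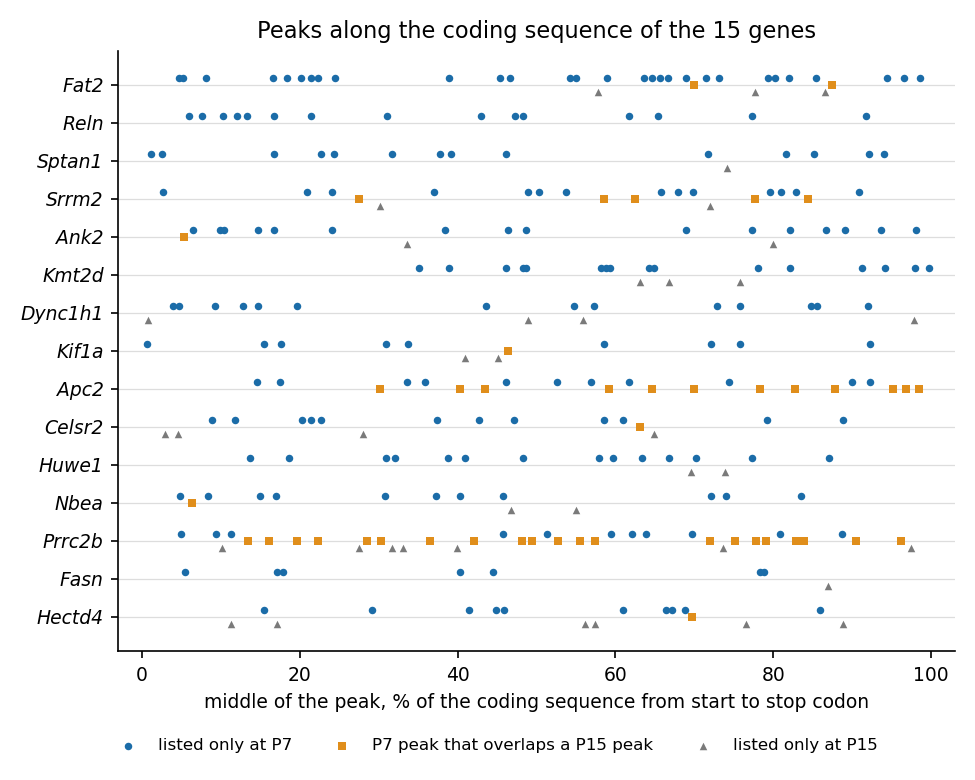
Middle of each peak that lies whole within the exons of a coding transcript, as % of the coding sequence (x axis), in the same 15 genes (y axis), with a mark and colour for each list. P7-only peaks are scattered over the coding sequences rather than gathered at either end; in Kmt2d they begin at 35.1%.

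Relative to coding length, smaller genes led. Among genes with at least 4 members, Pdap1 had the most per kb of coding sequence (7.37, 4 members in 543 nt), followed by Klc1, a kinesin light chain (5.95, 11 members in 1848 nt). Mbp, the myelin basic protein, had 5.33 per kb from 4 members, and Cpe, the carboxypeptidase that trims neuropeptide precursors, 4.90 from 7. Sparc, a matrix protein of glia and vessels, had 4.02 per kb from 4 members, Sept11, a septin, 3.86 from 5, and Tubb4a, a beta tubulin, 3.75 from 5. None of these 7 genes had a shared peak or a coding exon peak listed only at P15.

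Genes of the cytoskeleton held the largest number of members of any list examined. Of 60 listed genes 34 had a member (56.7%, against 5.14% of all protein-coding genes and 10.2% of long ones), with 228 members in all or 0.677 per kb of coding sequence, where all protein-coding genes had 0.0716 per kb. Beyond Sptan1, Ank2, Dync1h1 and Kif1a, they included the microtubule proteins Map1a and Map1b with 11 members each. The same list had 58 peaks listed only at P15, in 20 genes, or 0.172 per kb. Its median coding length was 4989 nt, against 2793 nt for the long genes, so length was not matched. Across the lists the share of genes with a member ran from 0% for interneuron markers to 65.4% for chromatin and transcription regulators. Presynaptic proteins, at 58.6%, were also above the cytoskeleton list. Per kb of coding sequence the list of granule cell markers held more members, 1.23, but that value rested largely on 2 genes. Of its 79 members Fat2 held 30 and Reln 24, and 37.0% of its genes had a member. The lists were compiled with earlier results of these data known and are given as counts without a test.

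Chromatin and transcription regulators held 159 members in 34 of 52 genes (0.452 per kb) and 62 peaks listed only at P15. After Kmt2d came Srcap, the motor of a complex that exchanges histone H2A.Z, with 13 members, 1 shared peak and 2 listed only at P15, and Chd7, a remodeller of the CHD family, with 11 and no other coding exon peak. Hcfc1, a cofactor of histone methyltransferases, ran the other way, with 3 members and 25 peaks listed only at P15, and without it the list had 37 such peaks.

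RNA-binding proteins and members of the miRNA pathway held 116 members in 33 of 62 genes, 57 shared peaks and 26 listed only at P15. Srrm2 led, followed by Prrc2b, Prrc2a with 12 members and 22 shared peaks, and Son, another nuclear speckle protein, with 12 members and neither a shared nor a P15-only peak. Among proteins that work with AGO2, Tnrc6c had 3 members, Tnrc6b 2 members and 6 shared peaks, and Ago1, Ago2 and Tnrc6a 1 member each. The transcript of the tagged protein itself thus held 1 member and no other coding exon peak.

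Adhesion and signalling genes gave a mixed picture. Of 30 cadherins 6 had a member, 65 members in all: Fat2, Celsr2, Celsr3 (8) and Dchs1 (7), the last without any peak of the other kinds, then Fat1 (4) and Cdh2 (2). In the Reelin and lipoprotein receptor pathway 5 of 18 genes had 42 members, 24 of them in the ligand Reln; the receptors followed with Lrp1, a large endocytic receptor (11, and 6 listed only at P15), Lrp8, a receptor of Reelin (3), and Lrp3 (2), and the downstream exchange factor Rapgef1 had 2. In the Wnt pathway 9 of 28 genes had 38 members, led by Apc2, Apc (10) and beta-catenin, Ctnnb1 (4). Axon guidance ligands and receptors had 11 members in 4 of 51 genes (7.84%, or 0.0654 per kb, near the 0.0716 per kb of all protein-coding genes), of which Plxnb2 had 5 and Plxna2 3.

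Postsynaptic genes held more coding exon peaks listed only at P15 than members, while for presynaptic genes the direction rested on 1 gene. Postsynaptic scaffolds and adhesion proteins held 43 members in 12 of 44 genes, 40 shared peaks and 108 peaks listed only at P15, and presynaptic proteins 56 members in 17 of 29 genes, 15 shared peaks and 63 listed only at P15. In per kb terms these lists had 0.301 and 0.464 members against 0.756 and 0.521 peaks listed only at P15, whereas over all protein-coding genes members outnumbered them, 0.0716 to 0.0364 per kb. Bsn, a giant scaffold of the active zone, had 9 members, 12 shared peaks and 42 listed only at P15, and without it the presynaptic list had 47 members against 21 peaks listed only at P15. Without its own gene with most P15-only peaks the postsynaptic list had 43 against 83. Shank2, a postsynaptic scaffold, had 6, 5 and 12, and Adgrl1, a latrophilin, 6, 11 and 10. Ptprs, a receptor phosphatase of presynaptic sites, had 10 members and none of the other kinds.

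Channels and receptors of Purkinje cells held 69 members in 16 of 46 genes and 54 peaks listed only at P15. Itpr1, the IP3 receptor that releases calcium from stores, had 12 members, 4 shared peaks and 3 listed only at P15; Cacna1e had 9 members and Cacna1a, the P/Q-type calcium channel, 8 members and 8 listed only at P15. Atp2a2, the calcium pump of the endoplasmic reticulum, had 7 members and none of the other kinds. For Cacna1g, a T-type calcium channel, 5 members stood beside 13 peaks listed only at P15. Extracellular matrix genes had 11 members in 4 of 34 genes and cell cycle genes 10 in 4 of 32, 6 of them in Mki67, a marker of dividing cells, and neither list had a coding exon peak listed only at P15.

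Markers of the labelled cell type were present beside markers of other cells. Of 26 Purkinje cell markers 12 had a member, 35 in all, among them Itpr1, Car8 (2) and Calb1 (1), while Pcp2, Pcp4 and Foxp2 had none. Of 27 granule cell markers 10 had a member, 79 in all, 54 of them in Fat2 and Reln; Ptch1, the Hedgehog receptor, had 8, Cntn2, an adhesion molecule of parallel fibres, 6 and Neurod1 3, whereas Atoh1 and Gabra6 had none. Bergmann glia and astrocyte markers had 20 members in 9 of 16 genes, led by Sparcl1 with 6, and oligodendrocyte lineage markers 6 in 3 of 14. None of 8 interneuron markers and none of 14 microglial, endothelial and mural markers had a member. In peaks listed only at P15 the Purkinje list had 31, the granule cell list 14, the glial list 6 and the oligodendrocyte list 0. What part RNA of other cells had in the member counts was not tested.

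Along the coding sequence the members were spread nearly evenly. For the 2071 members (81.2%) that lay whole within the exons of a coding transcript, the median position was 48.4% of the way from start to stop codon (95% interval 47.2 to 50.8). In bins of 10% of the coding sequence the shares ran from 8.21% in the last bin to 11.7% in the fifth, and 8 members had their middle before the start codon. Shared peaks were sparser in the first bin, with 3.40% (interval 1.71 to 5.99) against 8.98% (7.78 to 10.3) of members and 8.54% (6.93 to 10.4) of peaks listed only at P15. That bin held 11 of 324 shared peaks. The intervals treat peaks of 1 gene as independent, and the difference in the bin was not tested. The start codon lay in 23 members (1.11%), and 61 (2.95%) had their middle in the last 100 nt of the coding sequence, where the rule itself removes any peak that reaches the 3' UTR.

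**Figure D3:**
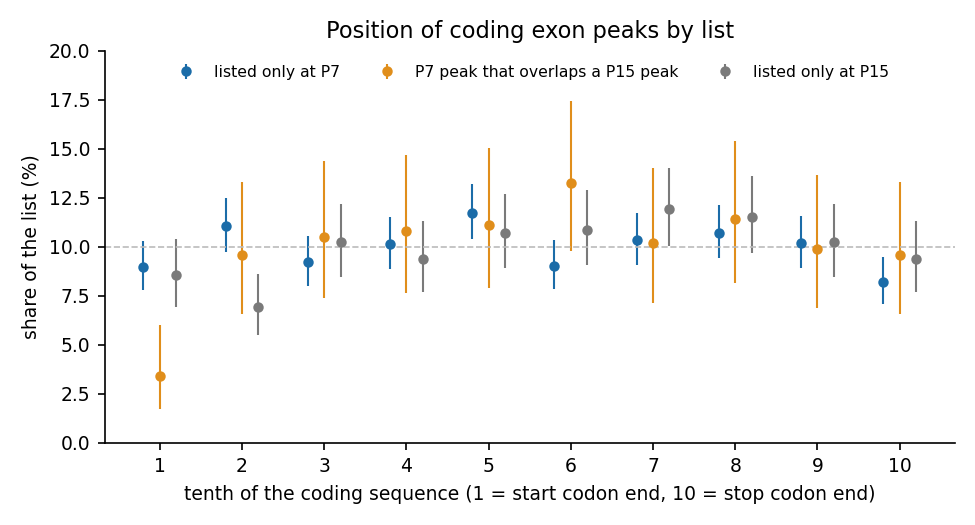
Share of each list (y axis, %) whose peak middle falls in each bin of 10% of the coding sequence (x axis, bin 1 at the start codon), with exact binomial 95% intervals as bars and a dashed line at 10%. Members stay between 8.21% and 11.7% throughout, and shared peaks are at 3.40% in the first bin.

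Exon edges left a mark on the listed peaks. Exactly 1 nt past an exon edge was reached by 406 members (15.9%), and 11 (0.431%) went further, so hardly any entry ran on into an intron. The 1-nt excess fell on the 5' edge of the exon in 209 and on the 3' edge in 197. The same was true of 14.3% of shared peaks and 15.3% of peaks listed only at P15, so it is a feature of both lists. Across a junction 64 members met a second member, as 32 pairs that occupy neighbouring bases of the spliced transcript. Peaks 1 nt past an exon edge were allowed in these pairs, so the 64 can overlap the 406. With such pairs counted as 1 each, 2519 members remain. Of the members placed whole within exons, 43.3% had their middle within 50 nt of a junction, where 48.1% of their coding sequences lie. That set leaves out every member that passes an exon edge, so no shortfall near junctions can be read from these shares.

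Spacing within a transcript varied. Of the 1472 members with another on the same transcript, the median gap to the nearest was 289.5 nt, and 377 (25.6%) had one within 100 nt.

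In base composition the members stood above their immediate surroundings. Each of 1948 members in 941 genes was compared with windows of its own length directly upstream and downstream in the same coding sequence. Median GC content was 55.8% in members, 53.6% upstream and 53.2% downstream. With the gene as the unit, the mean difference was 2.31 percentage points from the upstream and 2.89 from the downstream window. Members were higher in 555 genes and lower in 305 against upstream, and higher in 562 and lower in 297 against downstream (two-sided exact sign test, larger p of both = 1.22e-17, adjusted over 5 within-gene comparisons 6.09e-17). With windows set 50 nt away the mean difference fell to 1.16 points and was not called (adjusted p = 0.214).

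The profile of GC content by distance shows where that difference lies. It was 57.1% in the 10 nt just past the middle of the members, 52.4% at 25 nt downstream and 53.5% at 25 nt upstream, and 54.5% at 105 nt downstream and 55.0% at 105 nt upstream. The windows next to a peak were thus lower than the sequence farther out, and the middle was higher than both. Shared peaks and peaks listed only at P15 had the same shape at a higher level, with 59.6% and 58.5% at the middle and 55.5% and 55.6% at 35 nt downstream. The dip and rise were thus present in all 3 lists, and no test between lists was made of the profile.

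**Figure D4:**
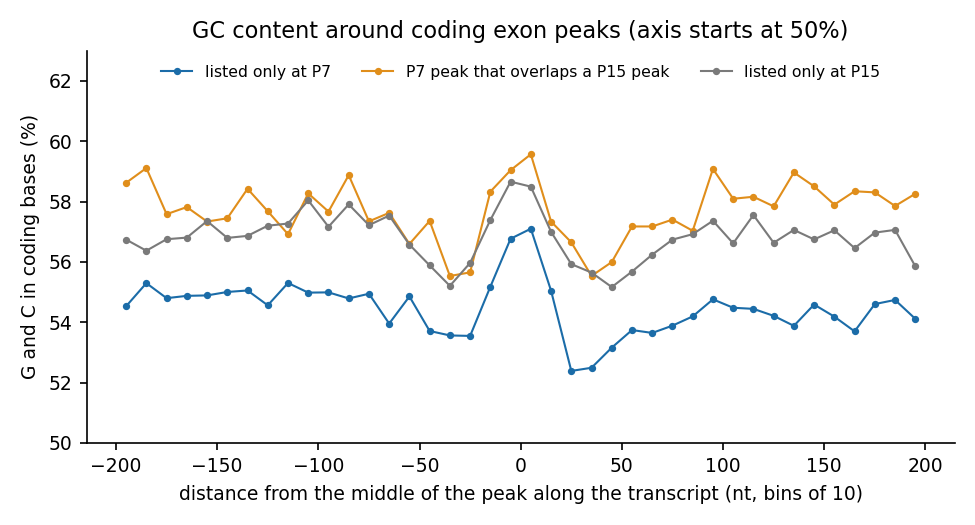
GC content of coding bases (y axis, %, starting at 50%) by distance from the middle of the peak along the transcript (x axis, nt in bins of 10) for the 3 lists. Members rise to 57.1% at the middle and dip to 52.4% at 25 nt downstream, and the other lists show the same shape at a higher level.

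Short words set the members apart from the bases beside them. Of all words of 5 nt, 13 (1.27%) were more frequent and 48 (4.69%) less frequent in members than in both flanks (exact McNemar test per word, Benjamini-Hochberg over all words, adjusted p under 0.05). GAAGA was the most clearly more frequent, in 430 members (22.1%) against 287 upstream (14.7%) and 307 downstream (15.8%), adjusted p = 8.78e-05. It was the only word still called when the windows lay 50 nt away (adjusted p = 0.00175). With 1 member per gene it was the only more frequent word called (adjusted p = 0.00169). The main test counts every member, although members of 1 gene share their sequence context. The others were CGAAG (122 members, against 64 and 68), CCCTG (297 members), GAGGA (336), CTGAA (229), CTGCG (132), GGAGA (324), GCGCC (119), CCTGG (340), CCGAA (82), GAACG (106), GATCG (84) and CGTGA (78). Of these 13, 7 hold a CG and none lacks G, and the capitals above include GCGCC in Reln and, in Srrm2, the word GGAGA.

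The less frequent words were poor in G and rich in CA. AACAA was in 76 members (3.90%) against 165 upstream and 169 downstream (8.47% and 8.68%), adjusted p = 2.02e-06. TCATT followed with 36 members against 92 and 99, then ACAAC with 68 against 146 and 137, CAACA with 104 against 208 and 183, TTCAT (44 members), TTACA (23), TACAA (42), TCATG (63), AACAT (53) and ACCAA (85). CA is part of 39 of these 48 words (244 of all 5-nt words hold it), and 42 lack G. All 48 lost the call with windows 50 nt away, and 3 of them, namely AACAA (adjusted p = 0.000521), ACAAC (0.0157) and CAACA (0.0224), were called with 1 member per gene. The longer repeat GAAGAA was in 9.14% of members (interval 7.89 to 10.5), 5.34% of upstream and 5.95% of downstream windows. In shared peaks it was in 7.17%, against 3.91% and 3.26% beside them, and in peaks listed only at P15 in 3.80%, against 5.30% and 4.0%. No test of the words between lists was made.

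The reading frame of GAAGA was much the same in members and beside them. In members 52.3% of 600 occurrences began at the first base of a codon and 41.5% at the last, and upstream 54.8% and 40.3%. A start at the first base spells a glutamate codon, and a start at the last base spells a lysine codon.

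The ends of the members carried CA. Of 2071 members, 39.3% had C as the first base and 43.1% A as the second, and the base just before the peak was A in 42.7%. At the 3' edge the last base was A in 43.7% and the one before it C in 37.9%. A CA ended at the 5' edge or started there in 49.6% of members (interval 47.5 to 51.8), compared with 13.6% of positions inside them, and the same held at the 3' edge for 42.6% (40.4 to 44.8). Both edges had one in 23.3% and neither in 31.0%. For peaks listed only at P15 the shares were 32.5% at the 5' and 26.9% at the 3' edge, and for shared peaks 43.2% and 31.8%. Words cut by an edge are counted in neither window, so CA at the edges and the lack of words with CA inside the members touch on the same bases; how far one sets the other was not tested.

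**Figure D5:**
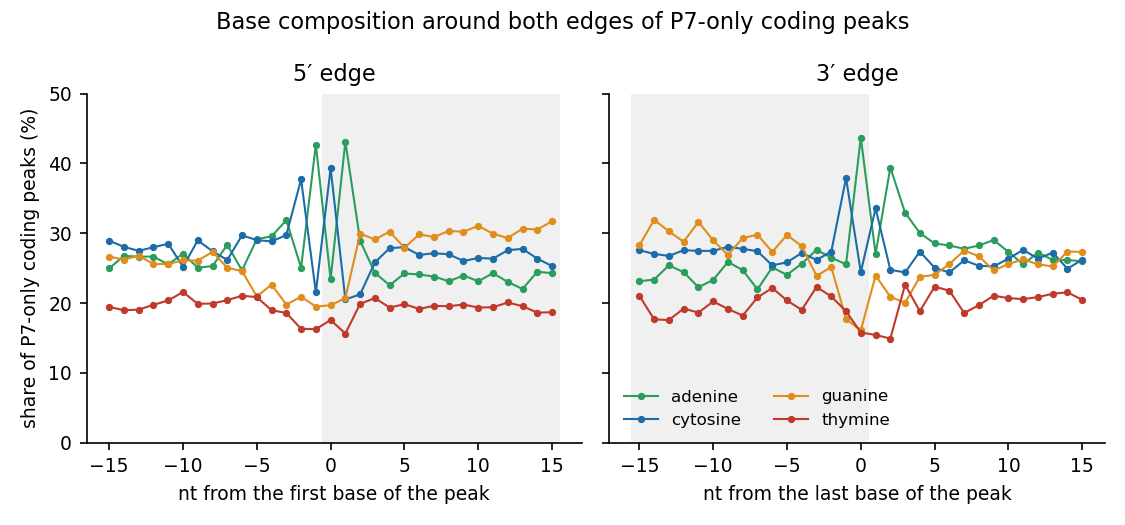
Share of the members with each base (y axis, %) by distance from the first base (left) and the last base (right) of the peak (x axis, nt), with the peak shaded. Adenine reaches 42.7% just before and 43.1% just after the first base and 43.7% at the last, and cytosine is at 39.3% at the first base.

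A second short sequence followed some peaks. TGGAAT, which is complementary to the 3' end of the reverse transcription primer given in the labels, began within 5 nt past the end of 44 members (2.12%, interval 1.55 to 2.84), against 0.209% of positions inside them. The share was 6.79% (4.30 to 10.1) of shared peaks and 2.54% (1.68 to 3.67) of peaks listed only at P15. These peaks stayed in every comparison.

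Matches to the seeds of the P7 miRNAs that could be searched did not differ detectably between members and the windows beside them. The miRNA counts gave 52 seed families of at least 1000 CPM (library counts scaled to a common total) at P7 with a mature sequence in the RefSeq table (GRCm38.p6), which matched 1679 of 1978 listed miRNAs and 61.8% of the P7 miRNA counts; miR-124-3p was not matched. Of these 52 families 0 (0%) differed from both flanks (exact McNemar test, Benjamini-Hochberg over families), 0 at an unadjusted p under 0.05, and with 6-nt matches 1 had such an unadjusted p and none was called. The larger p of both flanks was taken, and no call was possible where the flanks differed in direction. Some families had too few matches to be called at all, such as miR-409-5p, in 0 members, 1 upstream and 1 downstream window. A 7-nt match to any family was in 22.5% of members (interval 20.7 to 24.5), 21.5% of upstream and 20.2% of downstream windows, and an 8-nt match in 6.72%, 7.14% and 6.21%. The P7 miRNA libraries held 13059 and 6828 counts, so families were ranked from few reads.

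Single families were likewise near their flanks. miR-149-5p had a 7-nt match in 34 members (31 upstream, 21 downstream), miR-484 in 33 (19 and 23), miR-138-5p in 31 (37 and 32), the miR-16-5p family in 31 (30 and 26), miR-3473b in 24 (26 and 14), miR-24-3p in 23 (22 and 19), miR-370-3p in 23 (25 and 30) and miR-296-5p in 22 (29 and 10). The most abundant family searched, miR-9-5p, at 125201 and 105155 CPM in the P7 libraries, had a match in 8 members against 9 and 11. None of these differences was called.

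For 2 of these families the mature sequence and 8-nt matches (the 7-nt match followed by A) in the genes with most members are given, with the seed and the match in capitals, to show how a match sits in a member. A match is a description of letters and not evidence of pairing.
miR-484: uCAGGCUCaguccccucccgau
Fat2 (chr11:55265889-55265918, minus strand): gtgacagctggGAGCCTGAgcaggagggcc
miR-370-3p: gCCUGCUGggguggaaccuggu
Fat2 (chr11:55283774-55283803, minus strand): ttgatcgggagCAGCAGGAcactcacgaag
Sptan1 (chr2:30026030-30026059, plus strand): tgcaggccttcCAGCAGGAgggtattgcca
Srrm2 (chr17:23820627-23820656, plus strand): gctaaccttgcCAGCAGGAttccagcagca

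Within the same gene, members were not shown to differ from the other coding exon peaks in GC content or position. In 239 genes that held both, the median difference in GC content from peaks listed only at P15 was 1.10 percentage points (quartiles -3.45 and 5.39; 131 genes higher and 107 lower; exact sign test, adjusted p = 0.236), and that in position was -2.48 points of the coding sequence (quartiles -23.5 and 21.7; adjusted p = 0.605). In 91 genes with shared peaks the differences were 1.71 points of GC content (quartiles -2.25 and 7.20; adjusted p = 0.236) and -4.0 points of position (quartiles -20.6 and 17.3; adjusted p = 0.502). Across genes the members had the lower GC content, 55.8% against 58.5% for either other list, whereas within the genes that hold both kinds the median difference had the other sign and was not called.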

How the data were processed

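Target RNA was represented by 1 deposited peak list per age and an additional list deposited with P15 target replicate 2; whether each age's list pools its 2 target libraries is not stated outright, and the peak caller is not given in the sources used here. The authors' lists give position and strand, and the deposited score is 0 in all 11681 entries. The miRNA files hold the authors' raw count per mature miRNA, from which CPM were computed. The submitters' processing notes name mm10, the aligners STAR 2.5.2a and Bowtie2 2.4.2, the trimmer cutadapt 2.10, UMI-tools, and DESeq2 1.36.0, each without its role.

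Peaks were placed on GENCODE M21 with Python 3.11.15, numpy 2.4.6, scipy 1.17.1 and pandas 2.3.3; sequence came from its transcripts, in the transcript with the longest coding sequence that holds the whole peak. The word test was tried on simulated data. Genes named are the 15 with most members, the 8 with most per kb, up to 4 per list and, chosen after their values were seen, Fat1, Cdh2, Rapgef1, Hcfc1, Map1a, Map1b, Calb1, Neurod1, the AGO2 partners, markers without a member and neighbours of the threshold. Some items that this rule names are not reported here. Members and lists were chosen with earlier results of these data known. Motifs at peak edges, the trimming of peaks past exon edges and the list counts without 1 gene were added after seeing the data. Alternatives covered overlap rules, transcripts, widths, windows and word or match lengths.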

Additional observations from a re-analysis of the deposited data

How the results depend on the processing

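The number of members was 2511 without peaks of the replicate 2 list, 2848 with that list in place of the P15 list, 2458 with no P15 peak within 50 nt, 2638 where a P15 peak had to cover at least 50% of the peak, 2049 with the whole peak in coding segments and 2294 above 30 nt in width. Strand, APPRIS principal transcripts and junction pairs counted as 1 (an alternative chosen after seeing the data) left it within its interval. The GC difference from the flanks was 1.16 points and not called with windows 50 nt away (adjusted p = 0.214), and kept its call under the other 5 settings. Called 5-mers numbered 61; there were 1 with windows 50 nt away, 39 with windows free of any listed peak (10 of the 13 more frequent and 26 of the 48 less frequent words remained), 4 with 1 peak per gene and 1 among all 6-mers (ACAACA, less frequent). Trimming peaks past an exon edge gave 84, of which 56 were among the 61. The median position, the seed result and the 4 within-gene comparisons stayed on the same side of their thresholds under each setting tried; both differences in position changed sign under some settings without being called. No paired analysis was possible because each age has 1 peak list with no column per replicate; for the same reason no library could be left out. Depth of the target libraries is unknown from these lists.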
